A study of Mus musculus with 12 samples.

Results

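The genes described here are those whose mRNA level was higher in mouse embryonic stem cells without Alkbh5 (KO) than in every library of the wild type (WT) and of cells with the altered Alkbh5 that the labels call del-cIDR, in a study of intrinsically disordered protein regions. They were chosen from the mRNA levels themselves. Each library was scaled to reads per 1000000 reads in genes (CPM), and a gene was kept if its mean over the 6 input libraries was at least 1 CPM and the lower of the 2 KO libraries was at least 75% above the highest of the other 4. Of 56941 genes in the table, 14851 reached that mean, and 171 of these met the condition. The rule left out 2 further genes by identifier. The differences of KO from WT and from del-cIDR are therefore what the rule used, and they are given as a description. Counts of calls on them are set by the choice of the genes and support nothing.

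The study profiled m6A, methylation of adenosine at the N6 position, in polyA RNA of the mouse embryonic stem cell line E14TG2a. All 3 genotypes were grown with LIF and with inhibitors of MEK and GSK3, and each had 2 input and 2 immunoprecipitated samples. The mRNA levels come from the 6 input libraries, which held 19918177 to 36678609 reads in genes. The labels do not state if the replicates were grown separately or if a genotype was 1 clone. The p-values therefore measure only the spread between these samples, which may be technical. Both KO libraries are labelled mNKO6, and what the 6 stands for is not given. In bulk RNA, more cells with a transcript and more transcript per cell cannot be told apart.

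Alkbh5 is an enzyme of the AlkB family that removes m6A from RNA, mainly in the nucleus. The mark is written by a methyltransferase complex around Mettl3 and Mettl14 and is read by YTH-domain proteins, some of which hasten the decay of marked transcripts. Embryonic stem cells kept with LIF and both inhibitors stay in a naive state, in which m6A on transcripts of developmental regulators is known to shorten their life.

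The files list genes by Ensembl identifier without symbols, and 0 of the 171 identifiers matched the reference table given. No gene is named here, no sequence is shown, and m6A peaks, which are listed by position, were not set beside these genes. At most 2 identifiers are printed per direction in a comparison, and other genes are given by their rank on the ratio of the lower KO library to the highest other library. The targeted gene and markers of the cell type were not checked for the same reason.

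Most of the 171 genes were expressed at low levels. Their median level was 6.61 CPM in KO, 2.41 CPM in WT and 1.98 CPM in del-cIDR, each the mean of 2 libraries. Over the 6 libraries the median gene among the 171 had a mean of 3.70 CPM, against 23.4 CPM for the median of all 14851 genes. In KO 104 of them had a mean under 10 CPM, 38 reached 20 CPM, and 2 exceeded 100 CPM. The median gene rested on 244 and 221 reads in the KO libraries, on 63 and 79 in WT, and on 62 and 39 in del-cIDR, and the sparsest had 4 reads in del-cIDR replicate 2. Together the 171 genes took 2546 ± 8.15 CPM in KO, 889 ± 22.1 in WT and 828 ± 22.3 in del-cIDR (SD, n = 2 each).

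The ratio of the lower KO library to the highest other library had a median of 2.12 and reached 5.36. It was at least 3 in 17 genes, at least 2 in 107 and under 1.8 in 26. The 5 genes just inside the limit had ratios of 1.7515 to 1.7573, and the 5 just outside had 1.7390 to 1.7496, with no gap at the limit. Against the genotype means, the median gene was 2.91 times as high in KO as in WT and 2.88 times as high in KO as in del-cIDR. The 2 KO libraries lay close to each other, with a median ratio of the higher to the lower of 1.07, against 1.17 in WT and 1.15 in del-cIDR. The rule asks for a high value in the lower KO library, and these genes had more reads in KO. Their closeness in KO is therefore a description too. With limma on log2(CPM + 1), 171 of the 171 genes were called higher in KO than in WT, where 15.7% of all genes tested were, and 171 were called lower in del-cIDR than in KO, where 22.9% were. The rule used both contrasts, and nothing is read from these counts.

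**Figure D1:**
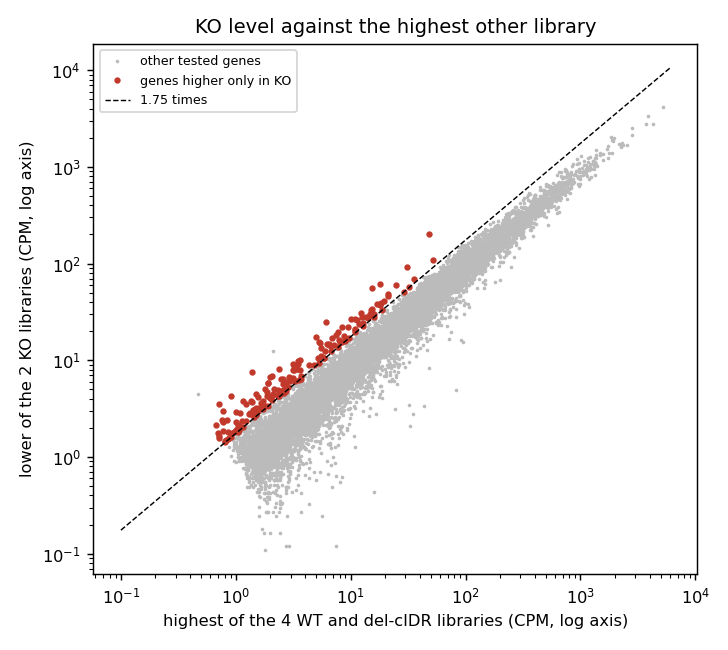
Each point is a gene with a mean of at least 1 CPM, with the highest of the 4 WT and del-cIDR libraries on the horizontal axis and the lower of the 2 KO libraries on the vertical axis, both in CPM on log axes; genes at 0 on either axis are not drawn. The 171 genes higher only in KO (red) lie on or above the dashed line, 75% above equality, most of them at levels under 20 CPM, and the 2 grey points above the line are the genes left out by identifier.

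The same rule was applied to the other genotypes for comparison. It found 207 genes lower only in KO (1.39% of those tested), beside the 171 higher (1.15%). In del-cIDR 31 were higher only (0.209%) and 58 lower only (0.391%), and in WT 5 (0.0337%) and 6 (0.0404%). By this rule on CPM, the KO libraries were thus set apart by more genes than those of the other genotypes, in both directions. The KO replicates also differed least, by 3.29 times the variance of counting, against 7.46 in WT and 7.06 in del-cIDR. How far this bears on the counts was not tested.

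The genes with the largest ratios were in part very sparse. The gene ranked first had 7.47 and 9.42 CPM in KO, 1.39 and 0.852 CPM in WT, and 0.581 and 1.10 CPM in del-cIDR. The gene ranked second had 3.95 and 3.51 CPM in KO, 0.717 and 0.382 CPM in WT, and 0.516 and 0.653 CPM in del-cIDR. Neither passed 1.39 CPM in the 4 other libraries, where the second rested on as few as 13 reads.

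Among the 69 genes with a mean of at least 5 CPM, ENSMUSG00000066652 had the largest ratio and also the highest KO level of all 171. It had 202 and 203 CPM in KO, 48.1 and 43.2 CPM in WT, and 20.7 and 20.1 CPM in del-cIDR. The 3 genotypes did not overlap: KO was 4.44 times WT and 9.94 times del-cIDR, with WT in between. ENSMUSG00000038793 came next, with 26.4 and 25.1 CPM in KO, 5.06 and 6.14 CPM in WT, and 5.29 and 5.77 CPM in del-cIDR. Here WT and del-cIDR overlapped, and KO was 4.61 and 4.66 times their means. These patterns, one with del-cIDR below WT and one with the pair alike in range, recur below together with another, in which del-cIDR lies above WT.

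The 20 genes with the largest ratios at this level had KO means of 10.4 to 203 CPM, 2.53 to 6.90 times WT and 2.55 to 13.0 times del-cIDR. In 14 of the 20 the del-cIDR mean was above the WT mean. The gene of rank 10 of 171, at 63.2 and 61.4 CPM in KO, 11.9 and 9.31 CPM in WT, and 17.9 and 14.0 CPM in del-cIDR, is an example. The 10 genes with the highest KO means, at 51.0 to 203 CPM, had the del-cIDR mean above the WT mean in 3. Among all genes tested the del-cIDR mean was below the WT mean in 52.1%. Of the 20 genes, 5 lie in the stretches described below and 6 in the runs outside them. Of the 10 genes, 6 lie in the stretches. Whether the direction goes with the ratio or the KO level was not tested. The second most abundant gene in KO had 109 and 117 CPM there, 51.3 and 47.8 CPM in WT, and 45.8 and 52.0 CPM in del-cIDR, a ratio of 2.10.

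**Figure D2:**
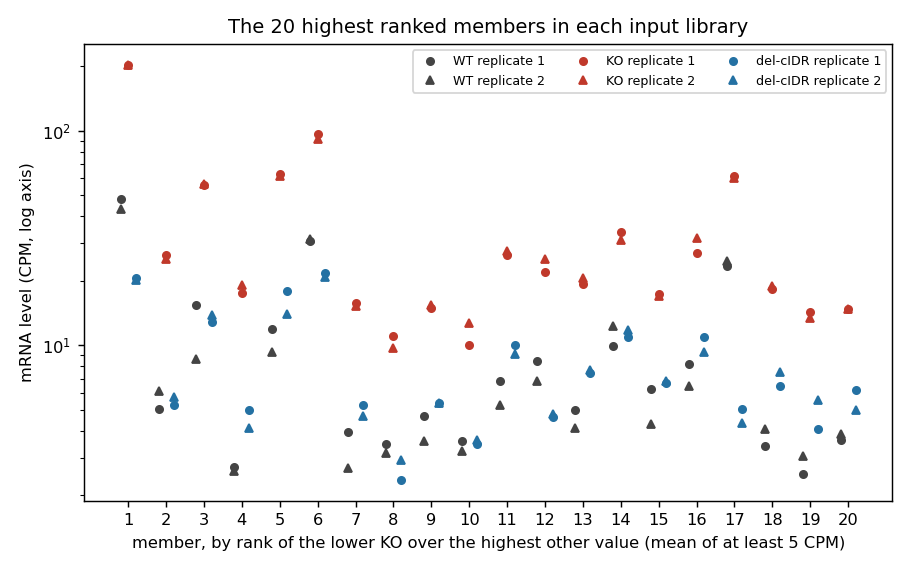
The 20 genes with the largest ratio of the lower KO library to the highest other library among those with a mean of at least 5 CPM, in order of rank, with the level in each input library in CPM on a log axis (circles replicate 1, triangles replicate 2). The KO libraries (red) lie above all others by the rule, and the del-cIDR libraries (blue) lie below the WT libraries (dark grey) in some genes, such as the first and the seventeenth, and above them in others, such as the fourth and the fifth.

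The difference between del-cIDR and WT among these genes is a comparison whose direction the rule does not set, since it puts the same ceiling on both. Over all 171 genes it had no common direction: del-cIDR was lower in 86 and higher in 85 on the log2(CPM + 1) scale, with a median difference of -0.0044, against -0.01 over all 14851 genes. Single genes differed, however. In limma, 28 of 171 genes (16.4%) were higher in del-cIDR than in WT (adjusted p under 0.05), where 5.18% of all genes tested were, and 24 (14.0%) were lower, where 7.98% of all genes were. The 28 had differences of 0.33 to 0.82, and the 24 had differences of 0.39 to 2.14 in size. Both del-cIDR libraries lay above both WT libraries in 54 genes (31.6%), as did 24.5% of all genes tested, and below both in 56 (32.7%; 27.7% of all genes). edgeR on whole reads recovered from the values called 28 higher, against 5.91% of all genes, and 23 lower, against 7.55%. Without WT replicate 2 the 52 limma calls were 25, of which 12 were higher and 13 lower, and without a filter on low values they were 24. Whether these genes differ from others of like level was not tested.

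The largest fall in del-cIDR was that of ENSMUSG00000005892. It had 23.5 and 24.8 CPM in WT, 5.04 and 4.37 in del-cIDR and 61.5 and 60.6 in KO. The 3 genotypes did not overlap, and del-cIDR was lower than WT by -2.14 on the log2 scale (SE 0.10, limma adjusted p = 8.42e-11). ENSMUSG00000030208 had 28.4 and 32.0 CPM in WT, 13.1 and 9.54 in del-cIDR and 58.8 and 57.0 in KO. It differed between del-cIDR and WT by -1.35 (SE 0.11, limma adjusted p = 3.42e-07), again with KO highest and del-cIDR lowest.

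On the log2(CPM + 1) scale, the largest rise in del-cIDR that passed the test was that of ENSMUSG00000117949, although sparser genes had larger ratios of CPM. It had 2.51 and 2.00 CPM in WT, 5.55 and 4.02 in del-cIDR and 11.0 and 11.6 in KO. Its difference from WT was 0.82 (SE 0.16, limma adjusted p = 0.00196). ENSMUSG00000110190 had 4.50 and 4.03 CPM in WT, 9.04 and 7.03 in del-cIDR and 17.7 and 16.6 in KO. It rose by 0.77 (SE 0.14, limma adjusted p = 0.00102), so that in both genes del-cIDR lay between WT and KO without overlap.

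The genes were not spread evenly over the table. The file does not say how its rows are ordered, and their order was used here only to ask which genes stand next to each other. In windows of 50 consecutive tested genes, 2 stretches stood out, each of at least 3 windows in a row whose median gene was at least 0.15 (log2) higher in KO than in the mean of WT and del-cIDR. This definition was set after the values were seen, so the counts below are a description. Whether the genes of a stretch lie on 1 chromosome, and the DNA copy number there, were not tested. The first covered the tested genes 5151 to 5800 and the second the tested genes 7701 to 8500. Together they held 1450 genes, 9.76% of those tested, and 44 of the 171, or 25.7%. The first stretch alone held 32 of them, 4.92 per 100 tested genes, the second 12, and there were 0.948 per 100 outside them.

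The stretches were defined by a higher median in KO, so the KO values of their other genes give the size of the shift and are no test of it. Among the 618 other genes of the first stretch, the median of KO minus WT was 0.34 (log2(CPM + 1)), and 85.6% were higher in KO. limma called 359 higher (58.1%) and 21 lower (3.40%), where 15.7% of all genes tested were called higher. Among the 788 other genes of the second stretch the median was 0.27, and 83.1% were higher. There 409 were called higher (51.9%) and 25 lower (3.17%). Over the rest of the table the median was -0.02. The KO libraries were alike, at 0.34 and 0.33 in the first stretch and 0.28 and 0.27 in the second. These medians amount to 1.26-fold and 1.21-fold, less than the factor the rule asks for.

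The same stretches were lower in del-cIDR than in WT, a difference the rule does not set, although the level of del-cIDR entered the choice of the stretches. The median difference among the other genes was -0.11 in the first and -0.18 in the second, against 0.00 in the rest of the table, and 29.9% and 16.8% of the genes lay above WT. The del-cIDR libraries stood at -0.08 and -0.13 in the first stretch and at -0.17 and -0.19 in the second. limma called 105 of the 618 genes lower in del-cIDR than in WT (17.0%) and 16 higher (2.59%), and of the 788 genes 242 lower (30.7%) and 8 higher (1.02%), against 7.98% lower and 5.18% higher of all genes tested. Over 268 windows elsewhere the window median for del-cIDR minus WT ranged from -0.11 to 0.09, and that for KO minus WT from -0.29 to 0.20. The 29 windows of the stretches ranged from -0.25 to -0.05 and from 0.21 to 0.45.

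**Figure D3:**
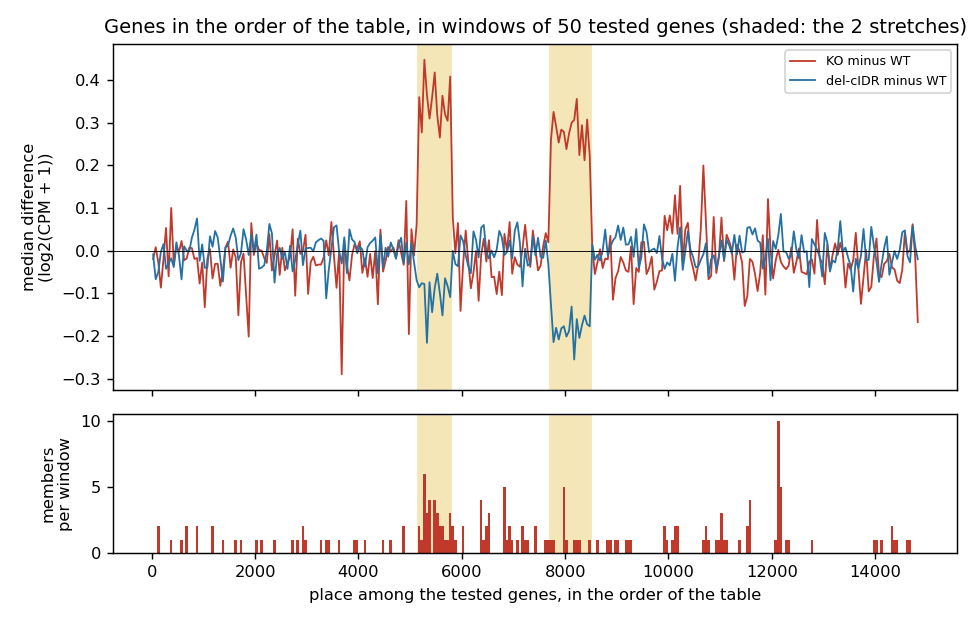
Top: median difference in log2(CPM + 1) of KO from WT (red) and of del-cIDR from WT (blue) in consecutive windows of 50 tested genes, in the order of the table, over all tested genes. Bottom: how many of the 171 genes fall in each window; the 2 shaded stretches, where KO lies above and del-cIDR below WT, hold 44 of them, and the tallest bar is at the run of 14 genes.

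Among the 44 genes in the stretches, del-cIDR was lower than WT in 30 and higher in 14, with a median difference of -0.19. Both del-cIDR libraries lay below both WT libraries in 19 of the 44, against 27.7% of all genes tested. They lay above both in 5 of the 44, against 24.5% of all genes tested. In limma 12 were called lower (27.3%, against 7.98% of all genes tested) and 3 higher (6.82%, against 5.18%). Of the other genes, 17.0% in the first stretch and 30.7% in the second were called lower, and 2.59% and 1.02% higher. The share of the 44 called lower lies between those of the other genes in the 2 stretches. Whether the 44 differ from these other genes was not tested. ENSMUSG00000005892 and ENSMUSG00000030208 both lie in the first stretch, and 6 of the 10 genes with the highest KO levels lie in a stretch. When each gene's ratio was divided by the median ratio of the other genes in its stretch, 1.17 and 1.12, 21 of the 32 and 5 of the 12 still passed the limit. This left 153 of the 171 genes, and 127 lie outside the stretches. The divisors set the lower KO library against the highest other, so they are smaller than the median shifts between genotype means. Those were 1.26-fold and 1.21-fold over WT, and 1.35-fold and 1.38-fold over del-cIDR. Division by these larger values was not run and could leave fewer than 153. How much of the difference in each of the 44 genes goes with the shift of its stretch was not tested further.

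The genes also stood in runs of near neighbours. Runs were taken as 3 or more of the 171 with at most 5 places from one to the next among the tested genes, a definition set after the values were seen, so that counts in runs are a description. There were 8 runs with 41 genes, 8 of them in the first stretch. The longest held 14 of the 171 genes within 21 tested genes, and in 5 of the other 7 genes there both KO libraries also lay above all others. The share of all tested genes for which that holds was not counted, so nothing is read from the 5. A run of 5 took 5 consecutive places, as did another of 5 inside the first stretch. Of all 171 genes 36.8% had another within 5 places. Of the 207 genes lower only in KO 33.8% did, but their longest run held 5. Near neighbours are therefore found among both sets. Whether neighbours share reads through similar sequence was not tested.

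In the longest run the KO libraries had medians of 14.4 and 14.1 CPM over the 14 genes, with values from 1.53 to 35.8. The WT libraries had medians of 3.07 and 3.45 and the del-cIDR libraries 5.12 and 5.27. The most abundant gene of the run had 35.8 and 34.2 CPM in KO, 11.9 and 9.28 CPM in WT, and 15.3 and 13.0 CPM in del-cIDR. Del-cIDR had the higher mean in 14 of the 14. In 11 of the 14 both its libraries lay above both WT libraries, against 24.5% of all genes tested. The run of 5 outside the stretches, which includes ENSMUSG00000110190, had del-cIDR above WT without overlap in 5 of 5 genes, against the same 24.5%. Its highest gene had 38.8 and 37.6 CPM in KO, 10.6 and 9.64 CPM in WT, and 17.8 and 17.0 CPM in del-cIDR.

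Over the 33 genes in runs outside the stretches, del-cIDR was higher than WT in 32, with a median difference of 0.39. limma called 16 higher (48.5%, against 5.18% of all genes tested) and 1 lower (3.03%, against 7.98%). KO stood 3.43 times above WT and 2.47 times above del-cIDR in the median of these genes, while in the 44 genes of the stretches it stood 2.54 times above WT and 3.33 times above del-cIDR. The other 94 genes had a median difference between del-cIDR and WT of -0.06, with 9 called higher (9.57%) and 11 lower (11.7%), nearer to the shares of all genes. Without WT replicate 2, del-cIDR was still higher in 30 of the 33 genes, with a median of 0.33, but 7 were called, and without del-cIDR replicate 1, 31 were higher and 10 called. The difference between these 3 sets was not tested, since the sets were formed after the values were known.

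**Figure D4:**
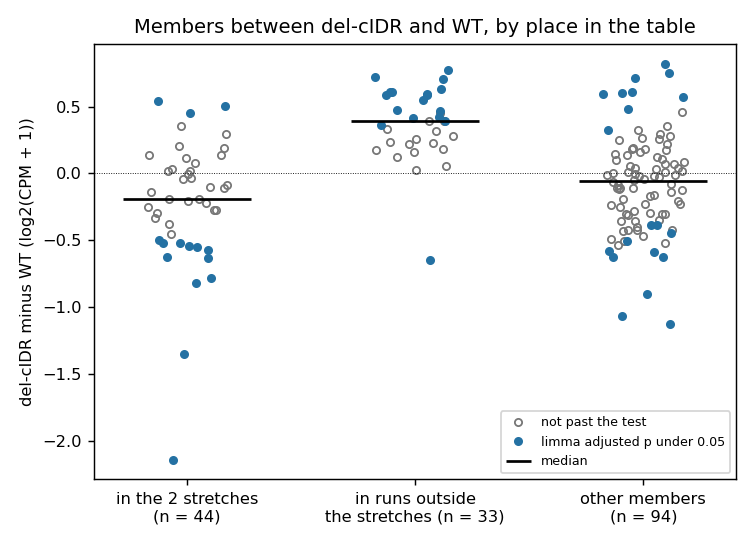
Difference of del-cIDR from WT in log2(CPM + 1) for each of the 171 genes, by place in the table; filled points passed limma's test, open points did not, and the line is the median. The 44 genes in the stretches have a median of -0.19, the 33 in runs outside them 0.39, and the other 94 a median of -0.06.

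The deposited values carry another scale, 1 factor per library from 1 to 2.98, which lowers the KO libraries against the others. On that scale the median of all 14851 genes was -0.92 (log2(value + 1)) in KO against WT, and that of the 171 genes was 0.61. The KO mean stayed above the WT mean in 166 of the 171 genes and above the del-cIDR mean in 171, and the lower KO library exceeded the higher WT library in 113 and all 4 other libraries in 72. The shares of all tested genes that meet these conditions were not counted. The choice of the genes bears on this scale too, so nothing is read from these counts or from their calls on it. In limma 7 of the 171 were called higher in KO than in WT, where 0.0606% of all genes were, 14 were lower in del-cIDR relative to KO, where 0.128% were, and 1 lower in del-cIDR than in WT, where 0.00673% were. ENSMUSG00000066652 had 7930 ± 1728 scaled reads in KO, 3356 ± 343 in WT and 1354 ± 599 in del-cIDR (SD, n = 2 each). For 5 of the 171 genes the deposited KO mean was not above the WT mean.

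**Figure D5:**
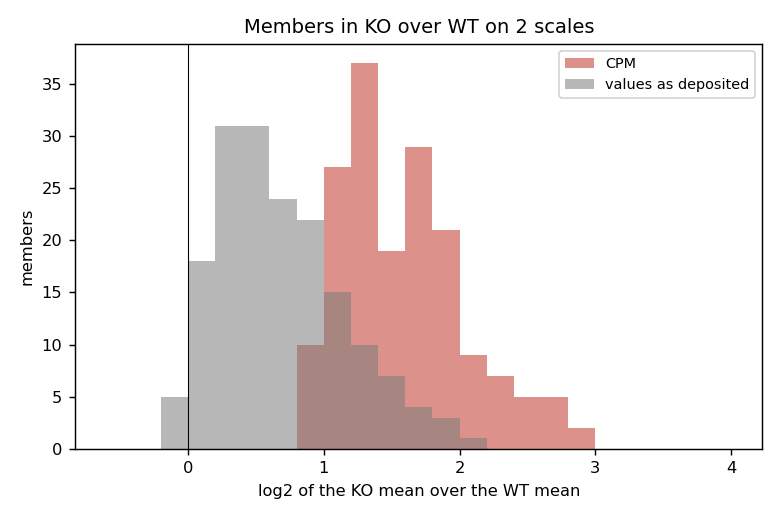
Number of the 171 genes (vertical axis) by the log2 of the KO mean over the WT mean (horizontal axis), from CPM (red) and from the values as deposited (grey). The red bars lie above 0 by the rule, and on the deposited scale 166 genes lie above 0.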

How the data were processed

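The members, the gene lists and the tests were chosen with earlier results of these data known. The authors deposited a signal: each library's read count per gene, multiplied by a factor of that library. Every value (100%, tolerance 0.001 reads) was a whole multiple of its library's lowest value above 0. The factor of KO replicate 2 is 1, so its deposited values are counts. The submitters' processing notes list HISAT2, featureCounts, fastp, bedtools, SAMtools, MACS2 and Picard, with no role, order or version, and the build GRCm39. The sources used here do not state how reads of repeated or overlapping genes were assigned.

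Values were divided by their column sum and multiplied by 1000000 (CPM). For 14851 genes with a mean of at least 1 CPM, log2(CPM + 1) of the 3 genotypes was modelled together in limma 3.58.1 under R 4.3.3. The variance was moderated with a trend on level, and p-values were adjusted by Benjamini-Hochberg over all 14851 genes, at 0.05. Such differences understate changes of low genes. edgeR 4.0.16 and DESeq2 1.42.0 were run on recovered reads. Genes were to be named as the 20 largest ratios with a mean of at least 5 CPM, the 10 highest KO levels, the 5 on each side of the limit, and those called between del-cIDR and WT. Without symbols, at most 2 identifiers per direction are printed, the rest as ranges. Gene lists by symbol and tests of m6A peaks in these genes were planned and not run. Between replicates the variance was 3.29 to 7.46 times that of counting alone. Plots were made with Python 3.11.15 and matplotlib 3.10.9.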

Additional observations from a re-analysis of the deposited data

How the results depend on the processing

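The number of genes chosen was 5 with the values as deposited, 346 with a factor of 1.5, 107 with a factor of 2, 69 with a mean of at least 5 CPM, 163 with TMM factors, and 184 to 233 when 1 library was left out. A lower factor can only add genes, and a higher factor or level can only remove them. Leaving out a library can also only add genes, since the mean level was still taken over all 6 libraries. The counts under these settings therefore show nothing about stability. With the values as deposited, 7 of the 171 genes were called in KO against WT, 14 in del-cIDR against KO and 1 in del-cIDR against WT. Under the other alternatives the first 2 counts were 160 to 171, which the choice of the genes sets and which shows nothing about stability. The 52 calls in del-cIDR against WT were 24 with no filter, 33 without a variance trend, 25 to 51 when 1 library was left out, and 37 (25 higher, 12 lower) outside the stretches, a setting chosen after seeing the data. In the fits that left out 1 library, a genotype's single library was taken to have the spread of the others. The labels do not say if the replicate number pairs the libraries. The replicate differences of the genotypes correlated at -0.14, -0.12 and 0.13, which cannot settle it. With a replicate block 170, 171 and 53 genes were called. The 6 genes printed by identifier kept their direction under every alternative run, and 5 of them lost the call with the values as deposited. For ENSMUSG00000066652 and ENSMUSG00000038793, followed in KO against WT, the rule set the direction. The others were picked for large differences between del-cIDR and WT in the same data. Their kept directions therefore show little about stability. Alternatives for m6A peaks were not run. The lowest values in del-cIDR rest on 13 reads in replicate 1 and 4 in replicate 2.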
